A study of Mus musculus with 12 samples.

Results

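Transcripts of 50 genes that build the lipids of lung surfactant were followed in mouse lung: enzymes and regulators that make fatty acids, phosphatidylcholine and other glycerolipids. The list was given by gene symbol, and all 50 symbols matched 1 entry each among the 59136 entries of the count table. The study sequenced messenger RNA from 12 lung libraries, all labelled day 28, to compare Mut with WT mice. The WT group held 6 libraries, replicates 1, 3, 4, 5, 6 and 7, and the Mut group also 6, replicates 1, 2, 3, 4, 5 and 7. For Mut, the genotype was written as IARS1-TYR148CYS/ARG444* in the design text and as an IARS1 knockdown in the sample labels, and WT as IARS1-WT. IARS1 is the cytosolic isoleucyl-tRNA synthetase, which loads isoleucine onto its transfer RNA. The samples were labelled as lung and also as primary cells, while strain, sex, pooling and whether each library was a separate mouse were not stated, so the p-values given here rest on the spread of these samples, which may be technical in part.

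Surfactant is a film of lipid and protein that lowers surface tension in the alveoli, and its main lipid is phosphatidylcholine with saturated fatty acids. Alveolar type 2 cells make fatty acids from citrate, activate them with coenzyme A, attach them to glycerol-3-phosphate to give phosphatidate and then diacylglycerol, and join diacylglycerol to choline. The phosphatidylcholine is then remodelled, and lysophosphatidylcholine acyltransferase (Lpcat1) adds palmitate to give the dipalmitoyl form. The same steps lead to stored triacylglycerol in fat cells, where many of these enzymes are also abundant.

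5 of the 49 members that could be tested were higher in Mut and 0 were lower by edgeR (adjusted p under 0.05), a rule that called 4.57% of all tested genes higher and 5.31% lower. The 5 were the acetyl-CoA carboxylase gene Acaca, the elongase gene Elovl5, the acyl-CoA synthetase gene Acsl1 and the phosphatidate phosphatase genes Lpin2 and Lpin3. Promoter windows of 300 bases, from 250 before to 50 after a start site, were available from RefSeq (GRCm38.p6) for 41 of the 50 members, 58 windows in all. They are shown here for called genes whose windows held an E-box (CACGTG) or a sterol regulatory element (TCACNCCAC), motifs bound by factors that control lipid synthesis. Each is on the plus strand, printed 5′ to 3′, with capitals for the letters of CACGTG, TCACNCCAC and the NF-Y box CCAAT, read on both strands.
Elovl5, chr9:77917115-77917414: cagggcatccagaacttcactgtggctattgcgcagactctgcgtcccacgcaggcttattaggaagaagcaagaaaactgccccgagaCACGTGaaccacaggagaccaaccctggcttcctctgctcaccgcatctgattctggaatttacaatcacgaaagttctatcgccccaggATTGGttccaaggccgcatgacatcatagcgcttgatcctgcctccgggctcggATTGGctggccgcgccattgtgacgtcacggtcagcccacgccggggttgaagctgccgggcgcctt
Lpin2, chr17:71183282-71183581: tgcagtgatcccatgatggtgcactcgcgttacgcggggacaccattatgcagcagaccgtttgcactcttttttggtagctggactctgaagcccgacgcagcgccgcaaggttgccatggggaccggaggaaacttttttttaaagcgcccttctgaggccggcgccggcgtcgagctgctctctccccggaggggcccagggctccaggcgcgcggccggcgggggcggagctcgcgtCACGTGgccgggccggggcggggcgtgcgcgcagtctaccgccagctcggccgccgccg
Lpin3, chr2:160880420-160880719: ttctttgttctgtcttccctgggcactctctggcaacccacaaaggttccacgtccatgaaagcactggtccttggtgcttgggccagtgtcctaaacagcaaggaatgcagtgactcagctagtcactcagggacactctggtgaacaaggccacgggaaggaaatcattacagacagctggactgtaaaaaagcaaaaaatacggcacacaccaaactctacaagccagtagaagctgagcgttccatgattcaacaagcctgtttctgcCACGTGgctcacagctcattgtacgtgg
Acsl1, chr8:46490716-46491015: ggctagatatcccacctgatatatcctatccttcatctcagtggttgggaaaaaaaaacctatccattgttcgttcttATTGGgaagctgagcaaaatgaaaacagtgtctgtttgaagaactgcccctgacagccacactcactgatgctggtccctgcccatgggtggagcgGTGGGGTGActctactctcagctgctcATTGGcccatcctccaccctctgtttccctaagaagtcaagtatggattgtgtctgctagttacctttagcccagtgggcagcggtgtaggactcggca
The E-box began 161 bases before the start site in the Elovl5 window, 9 bases before it in the Lpin2 window and 23 bases after it in the Lpin3 window. The Acsl1 window, at a start site inside the gene, held the sterol element 76 bases before that site, as GTGGGGTGA on the printed strand. None of these matches overlapped another.

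The 5 called genes had 9 windows, of which 3 held an E-box, against 7.15% of all 32851 mouse windows and 4 of the 58 member windows (6.9%). The sterol element was in 1 of the 9, in 1.24% of all windows and in 4 member windows (6.9%). Of these 4, the Pcyt1a windows chr16:32430671-32430970 and chr16:32430770-32431069 overlap and held 1 match each, which may be the same site. CCAAT was in 3 of the 9, in 37.41% of all windows and in 29 of the 58 member windows. The C/EBP-ATF response element TGATGNAA was in 1 of the 9 (another window of Lpin2), in 3.97% of all windows and in 2 member windows (3.45%). The only Acaca window, chr11:84195188-84195487, held none of the 4 motifs. It lies inside the gene, whose annotated start is at 84129672, so the sequence at that start was not searched. These are letter matches in short windows and say nothing about binding.

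Library totals ran from 17118716 to 20119498 counts in the WT group and from 18870399 to 24014890 in the Mut group, and the members took between 0.543% and 0.6958% of them. Levels are given as CPM, counts divided by the library size after TMM, a factor per library that allows for differences in makeup. Fold changes are on the log2 scale, as Mut minus WT, each with an SE from edgeR. A gene was called when its Benjamini-Hochberg adjusted p over all 19004 tested genes was under 0.05. By that rule 9.89% of all tested genes were called, 4.57% higher and 5.31% lower, which is 869 and 1010 genes. The split was 648 to 1242 with upper-quartile scaling and 518 to 1513 with library totals alone. Iars1 itself (symbol Iars in the annotation) spanned 35.6 to 58.4 CPM in WT and 41.4 to 71.6 CPM in Mut (0.29, adjusted p = 0.189), so its transcript level did not separate the labels. Mut replicate 7 stood apart in alveolar type 2 markers, with a sum over 12 genes of 36342 CPM against 18417 to 23628 in the other Mut libraries and 20279 to 29007 in WT. Sftpc alone made up 19520 CPM of that sum. The same library was highest for alveolar type 1 markers, at 6097 CPM against at most 5362 in WT and 4909 in other Mut libraries. It was also highest for alveolar macrophage markers, at 908 CPM against at most 675 and 711. Mut replicates 1, 3 and 5 stood apart in adipocyte markers, with sums over 13 genes of 352, 269 and 324 CPM against 89.96 to 178 in WT. The heart muscle marker sum was 181 to 789 CPM in WT and 1882, 841, 1209, 299.6, 1323 and 862 CPM in Mut replicates 1, 2, 3, 4, 5 and 7, so 5 of 6 Mut libraries lay above every WT library, and of its 9 genes 0 were called by edgeR, 0 by limma-voom and 2 by DESeq2, while 3 had an unadjusted p under 0.05 in edgeR. Of the lymphocyte markers 9 of 9 were lower in Mut, of the red blood cell markers 5 of 5, and of the alveolar macrophage markers 1 was higher and 3 lower of 9. Of 10 airway and gland markers 4 were higher in Mut, by 3.21 for Bpifa1, 3.14 for Gp2, 2.14 for Ltf and 1.61 for Scgb3a1 on the log2 scale. In bulk tissue, fewer cells of a type and less RNA per cell cannot be told apart.

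Per gene length, the most abundant members in WT were the stearoyl-CoA desaturase genes Scd1 at 223 ± 50.7 FPKM and Scd2 at 159 ± 10.8 FPKM (SD, n = 6), which place a double bond in saturated fatty acids. Elovl5 (99.2 ± 6.08 FPKM), Lpcat1 (94.1 ± 11.1 FPKM) and Elovl1 (81.5 ± 16.99 FPKM) followed, each next step down being smaller than the larger SD of the pair. A further 22 members lay between 10 and 50 FPKM, 18 between 1 and 10 FPKM and 5 under 1 FPKM. Lowest was the elongase gene Elovl3 at 0.0431 ± 0.0293 FPKM in WT and 0.124 ± 0.0850 FPKM in Mut, between 0 and 8 reads per library, too few to be tested. Within families 1 gene often dominated. In WT, Lpcat1 made up 81.6 ± 2.10% of the summed FPKM of the 4 Lpcat genes, Chka 96.3 ± 1.24% of the choline kinases and Pcyt1a 96.3 ± 0.734% of the Pcyt1 pair, which activates phosphocholine with CTP.

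**Figure D1:**
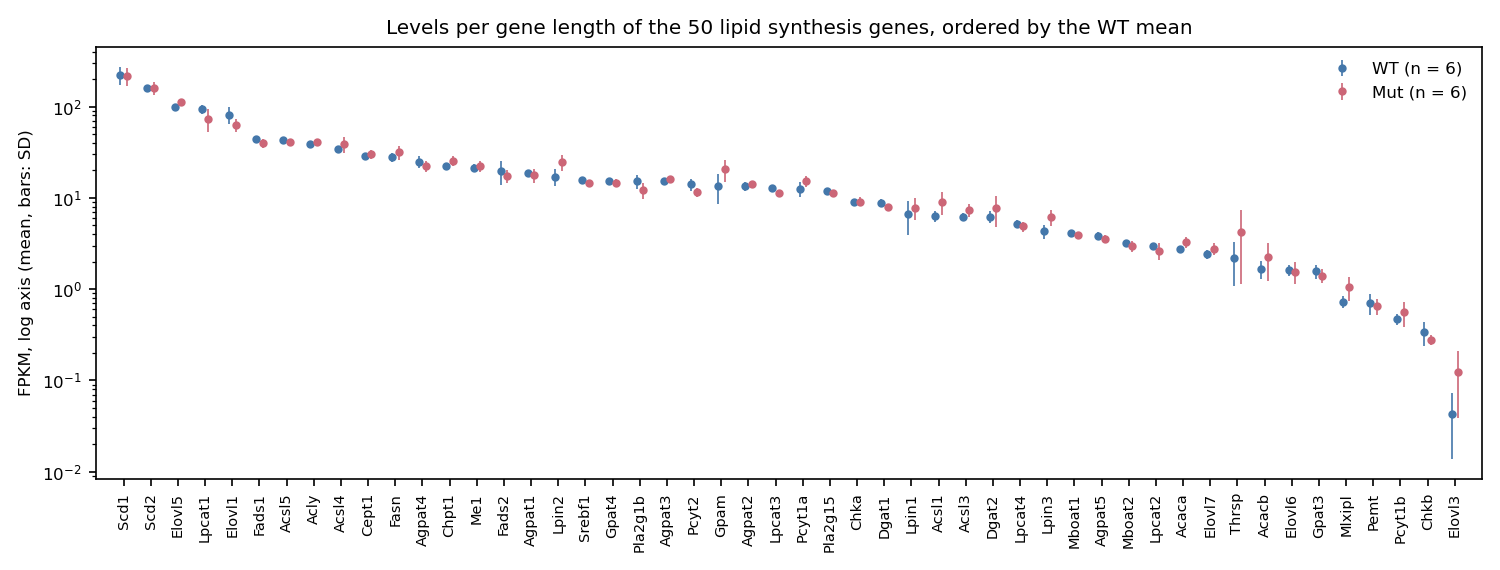
Level per gene length of each of the 50 genes in FPKM on a log axis, ordered by the WT mean, with points for the mean and bars for the SD of 6 WT and 6 Mut libraries. WT means run from 223 FPKM for Scd1 to 0.0431 FPKM for Elovl3.

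The 5 called members were 10.2% of those tested. The log2 fold change was above 0 for 26 and below 0 for 23, while 51.5% of all tested genes lay above 0. The median was 0.06, against 0.01 over all tested genes. By unadjusted p under 0.05 there were 14 higher and 2 lower members (Elovl1 and Pcyt2), 32.7% of those tested against 27.7% of all genes. The same 27.7% is the share beside every count of unadjusted p given here for a single step or marker list. DESeq2 called 7 members higher and 0 lower, and limma-voom 5 and 0. Of all genes, DESeq2 called 1275 higher and 1444 lower of 19705 tested, more than edgeR, and limma-voom 770 and 998 of 19004. Groups did not overlap for 1 member, Elovl5, against 4.58% of all tested genes (2.18% with Mut above and 2.39% with Mut below). By step, all 5 tested genes of fatty acid synthesis lay above 0 and all 8 of phospholipid remodelling below 0, although 1 and 0 of them were called. This held under TMM, RLE, upper-quartile and library-total scaling, but a change of scaling shifts all genes by nearly the same amount. Of the remodelling genes, Pla2g15, Lpcat4, Mboat1 and Mboat2 lay between −0.05 and 0, and each changed sign under some alternative fit.

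**Figure D2:**
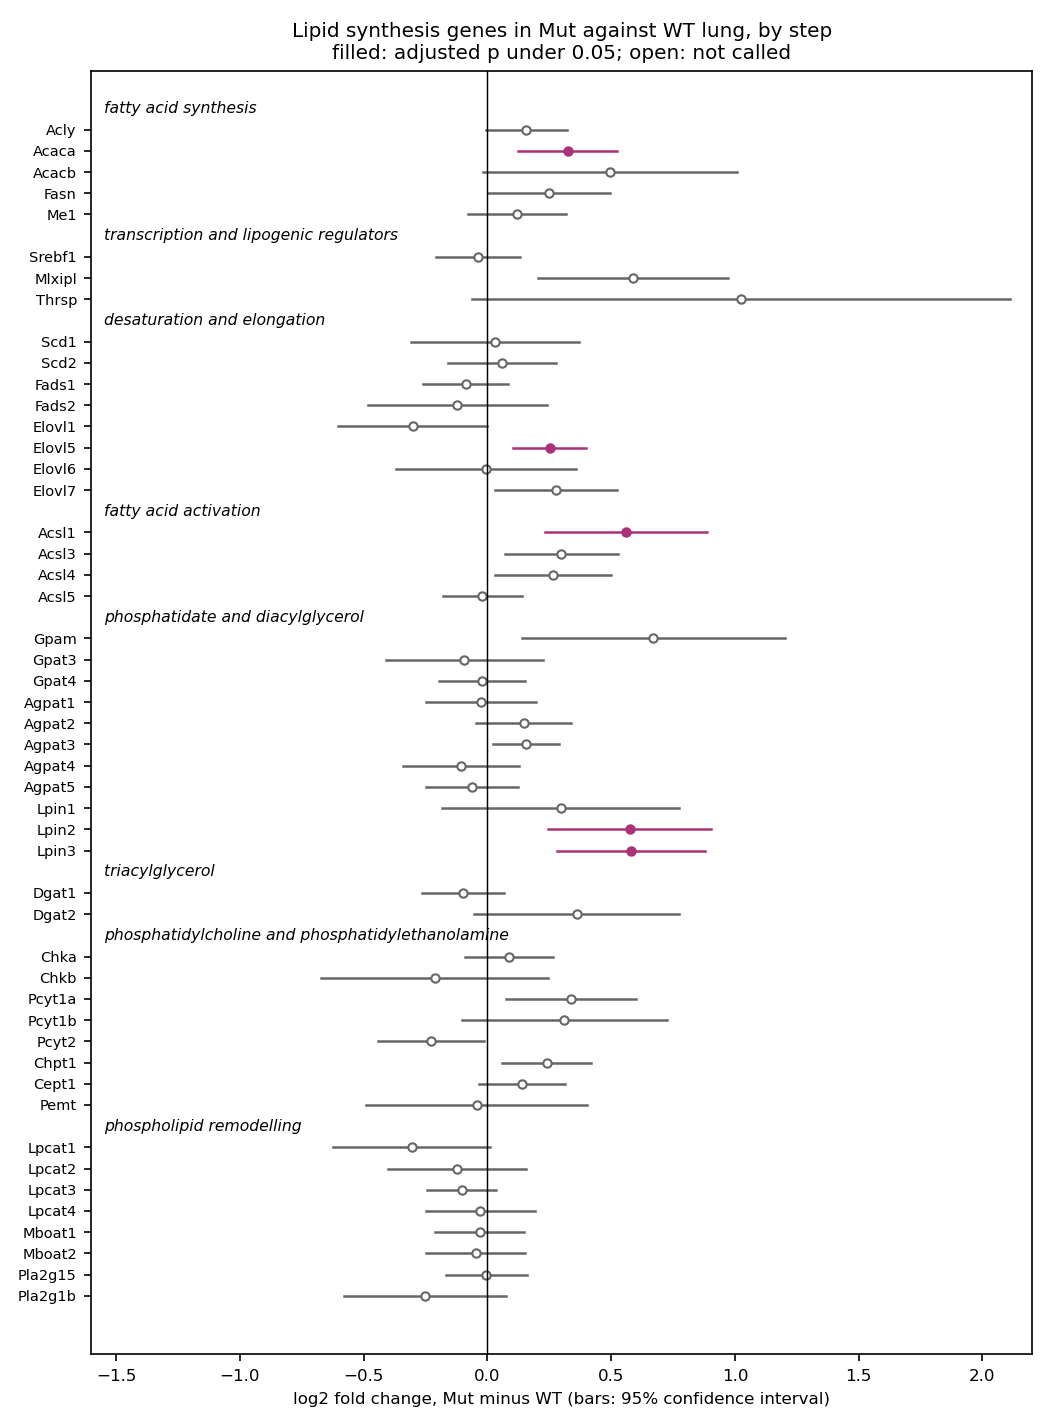
Log2 fold change, Mut minus WT, of the 49 tested genes grouped by step, with 95% confidence intervals from the edgeR fit; filled points have an adjusted p under 0.05. The 5 filled points lie between 0.25 and 0.58, and the 8 remodelling genes all lie between −0.31 and 0.

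In fatty acid synthesis, Acaca was 1.25-fold higher in Mut, and the other 4 enzymes did not pass. Acaca (ENSMUSG00000020532, chromosome 11 from 84129672 to 84401651, plus strand, mm10) encodes the cytosolic carboxylase that makes malonyl-CoA, the committed step. It read 40.4, 52.0, 44.7, 46.3, 42.9 and 47.5 CPM in WT, in the order of replicates given above, and 57.2, 57.1, 49.7, 47.6, 67.4 and 63.7 CPM in Mut. 4 of 6 Mut libraries lay above every WT library, and Mut replicates 3 and 4 lay within the WT range. The means were 45.7 ± 4.01 and 57.1 ± 7.70 CPM (SD, n = 6), a log2 fold change of 0.32 (SE 0.09, edgeR adjusted p = 0.0411). Its adjusted p was 0.0972 without Mut replicate 5, and the call held in 4 of the 12 fits that left out 1 library.

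Acly, the most abundant gene of this step per gene length, encodes ATP citrate lyase, which makes cytosolic acetyl-CoA. It read 173, 219, 191, 189.9, 207 and 222 CPM in WT and 223, 225, 206, 222, 246 and 219 CPM in Mut. The Mut libraries filled the upper end of the WT range and 4 exceeded it, with a log2 fold change of 0.16 (SE 0.08, adjusted p = 0.201). Fasn, the fatty acid synthase that assembles palmitate, averaged 298 ± 33.4 in WT and 354 ± 62.3 CPM in Mut (0.25, SE 0.12, adjusted p = 0.176). Its highest Mut libraries were replicates 5 and 7, at 441 and 401 CPM. Me1, the malic enzyme that supplies NADPH, lay at 0.12 (adjusted p = 0.425). Acacb, the carboxylase at the mitochondrial surface whose malonyl-CoA limits fatty acid oxidation, spread most in Mut, with 35.5 and 32.6 CPM in replicates 1 and 5 and 12.8 to 19.8 CPM in the others, against 12.3 to 20.7 CPM in WT (0.49, SE 0.24, adjusted p = 0.196).

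Of the 3 regulators, 0 were called by edgeR, and 1 had an unadjusted p under 0.05. Srebf1 encodes the sterol regulatory element-binding protein that drives fatty acid synthesis genes. It read 75.4, 89.7, 99.97, 82.8, 88.1 and 81.7 CPM in WT and 89.98, 75.7, 80.4, 82.6, 93.6 and 81.7 CPM in Mut. The groups overlapped almost completely, with a log2 fold change of −0.04 (95% confidence interval −0.21 to 0.13, adjusted p = 0.783). Mlxipl, the carbohydrate-response factor ChREBP, lay just outside the threshold at 3.96 ± 0.566 CPM in WT and 5.97 ± 1.74 CPM in Mut (0.59, SE 0.18, adjusted p = 0.0512). DESeq2 called it higher. Thrsp, a lipogenic protein of fat and liver, fell into separate levels among the Mut libraries, with 15.5, 13.9 and 17.8 CPM in replicates 1, 3 and 5 and 3.75, 2.27 and 3.91 CPM in replicates 2, 4 and 7, against 2.30 to 8.62 CPM in WT (1.02, SE 0.50, adjusted p = 0.206).

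Among desaturases and elongases, 1 of the 8 tested genes was higher in Mut. This was Elovl5 (ENSMUSG00000032349, chromosome 9 from 77917364 to 77984519, plus strand), which lengthens polyunsaturated fatty acids. It read 366, 329.7, 319, 334, 343 and 366 CPM in WT and 381, 434, 406, 413, 407 and 409.6 CPM in Mut. Every Mut library lay above every WT library. The rise was small next to that of other called members, from 343 ± 19.6 to 408 ± 16.8 CPM (0.25 on the log2 scale, SE 0.07, adjusted p = 0.0334). It held in 5 of the 12 fits that left out 1 library, and its log2 fold change stayed between 0.23 and 0.27 in them.

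Elovl1, which lengthens saturated and monounsaturated very long chains, lay on the other side of 0. It read 148, 239, 285, 236, 213 and 189.9 CPM in WT and 147, 160.0, 199, 175, 157 and 225 CPM in Mut (−0.30, SE 0.14, adjusted p = 0.180). Of the summed FPKM of the 5 elongase genes, Elovl5 took 54.0 ± 6.50% in WT and 62.6 ± 3.45% in Mut, and Elovl1 43.8 ± 6.76% and 34.9 ± 3.61%. These shares are descriptions without a test. Elovl7 averaged 9.44 ± 1.02 in WT and 11.4 ± 1.63 CPM in Mut (0.28, adjusted p = 0.137), and Elovl6, which extends palmitate to stearate, 10.2 ± 1.45 and 10.2 ± 2.69 CPM (−0.01, adjusted p = 0.988).

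Scd1 and Scd2 had the highest levels and log2 fold changes near 0. Scd1 read 832, 1486, 1094, 1013, 1049 and 885 CPM in WT and 829.5, 1183, 967, 824, 1318 and 1376 CPM in Mut. The groups spanned almost the same range, and the 95% confidence interval of the log2 fold change ran from −0.31 to 0.37 around 0.03. Scd2 had a log2 fold change of 0.06 (interval −0.16 to 0.28), with Mut replicate 7 highest at 1124 CPM. Fads1 and Fads2, the desaturases that make long polyunsaturated fatty acids, had log2 fold changes of −0.09 and −0.12 (adjusted p = 0.505 and 0.672). The step held 4 genes above 0 and 4 below 0 with TMM, 3 and 5 when libraries were scaled by the upper quartile and 2 and 6 by library totals.

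Of the 4 long-chain acyl-CoA synthetases, which activate fatty acids for use, 1 was higher in Mut and 3 had an unadjusted p under 0.05. Acsl1 (ENSMUSG00000018796, chromosome 8 from 46471037 to 46536051, plus strand) is a main isoform of fat, liver and heart. It read 71.4, 76.0, 54.0, 59.0, 70.7 and 60.4 CPM in WT and 133, 73.6, 95.5, 66.2, 120.2 and 88.3 CPM in Mut. Mut replicates 1, 3, 5 and 7 lay above every WT library, and replicates 2 and 4 lay within the WT range. The means were 65.3 ± 8.63 and 96.2 ± 26.2 CPM, a log2 fold change of 0.56 (SE 0.15, adjusted p = 0.0330). It was called in 6 of the 12 fits that left out 1 library, with adjusted p up to 0.0767. Reads from Gm45244, annotated on the opposite strand across 9.91% of its exon bases, cannot be told apart from its own, since the protocol names no step that marks the strand.

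The remaining synthetases did not pass. Acsl5, the most abundant, read 195, 211, 217, 207, 208 and 196 CPM in WT and 186, 191, 220.5, 193, 192 and 234 CPM in Mut. Mut replicates 3 and 7 lay above every WT library and the other 4 below every WT library, with a log2 fold change of −0.02 (adjusted p = 0.887). Acsl3 lay at 0.30 on the log2 scale (adjusted p = 0.0874), with 5 Mut libraries above every WT library and replicate 4 below them all. Acsl4, which prefers arachidonate, lay at 0.26 (adjusted p = 0.132), with Mut replicate 7 highest at 302 CPM.

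**Figure D3:**
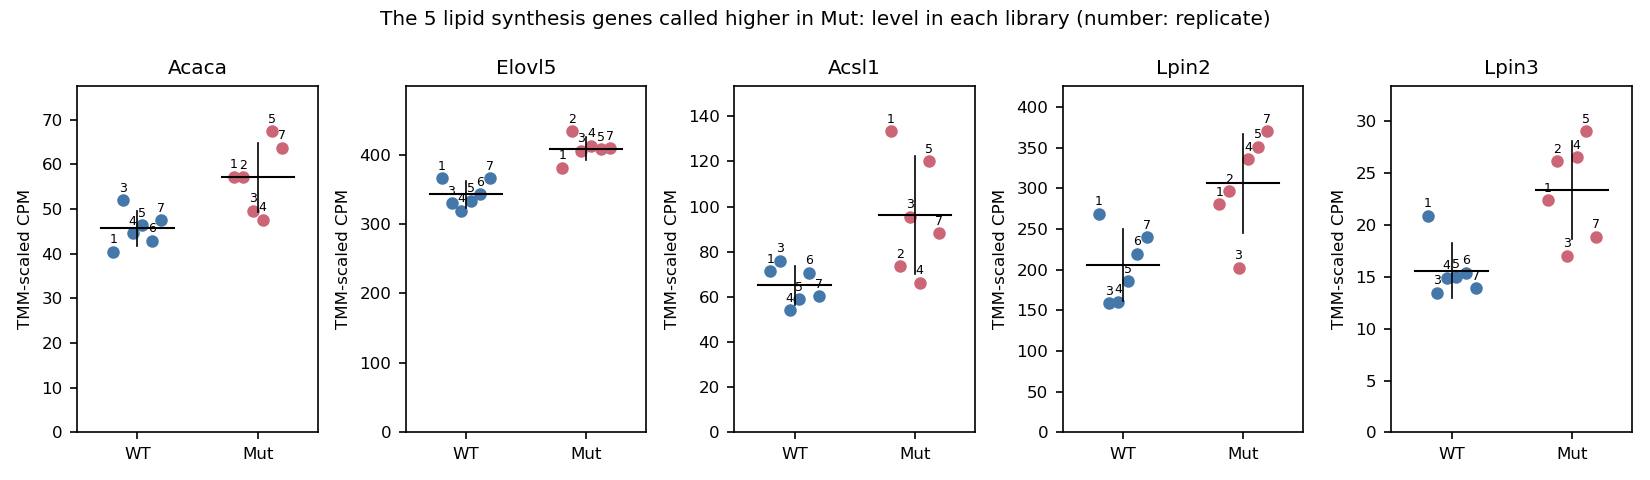
TMM-scaled CPM of the 5 called genes in each library, numbered by replicate, with the mean (long bar) and SD (vertical bar) of 6 WT and 6 Mut libraries. Every Mut library is above every WT library for Elovl5 only, and WT replicate 1 is the highest WT library for Lpin2 and Lpin3.

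The step from glycerol-3-phosphate to diacylglycerol held 2 of the 5 called genes, both lipins. Lipins remove the phosphate of phosphatidate to give diacylglycerol, the branch point to phosphatidylcholine and triacylglycerol. Lpin2 (ENSMUSG00000024052, chromosome 17 from 71182560 to 71249817, plus strand) read 269, 159, 161, 186, 219.6 and 239.7 CPM in WT and 281, 297, 202, 336, 351 and 370.3 CPM in Mut. 5 of 6 Mut libraries lay above every WT library, and replicate 3 lay inside the WT range. The mean went from 206 ± 44.6 to 306 ± 60.8 CPM, a log2 difference of 0.57 (SE 0.16, adjusted p = 0.0306).

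Lpin3 (ENSMUSG00000027412, chromosome 2 from 160880670 to 160906002, plus strand) read 20.9, 13.5, 14.9, 15.0, 15.4 and 13.9 CPM in WT and 22.4, 26.1, 17.02, 26.5, 29.0 and 18.8 CPM in Mut. Only WT replicate 1 reached into the Mut range, above Mut replicates 3 and 7. The mean went from 15.6 ± 2.69 to 23.3 ± 4.72 CPM, up by 0.58 on the log2 scale (SE 0.14, adjusted p = 0.0201), and was called in all 12 fits that left out 1 library, with adjusted p up to 0.0488. Lpin2 was called in 5 of those 12 fits, with adjusted p up to 0.0738. Lpin1, the isoform of fat and muscle, averaged 63.0 ± 25.2 in WT and 77.3 ± 20.2 CPM in Mut (0.30, SE 0.22, adjusted p = 0.410). WT replicate 1 was the highest WT library for each of the 3 lipins, and for Lpin1, at 112 CPM, the highest of all 12. Without WT replicate 1 the log2 fold changes of Lpin1, Lpin2 and Lpin3 were 0.54, 0.67 and 0.68, with adjusted p = 0.0526, 0.0164 and 0.00655. Lpin2 made up most of the lipin transcript per length, 61.2 ± 4.65% in WT and 63.6 ± 5.31% in Mut.

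Gpam, the mitochondrial acyltransferase that starts glycerolipid synthesis, had the largest log2 fold change of the step, and was not called. It read 40.6, 52.9, 24.5, 52.4, 53.4 and 79.9 CPM in WT and 86.1, 72.5, 40.0, 92.3, 100.1 and 92.5 CPM in Mut. 4 of 6 Mut libraries lay above every WT library, and the spread within WT was wide (0.67, SE 0.25, adjusted p = 0.0984). In the fits that left out 1 library the adjusted p of Gpam ran from 0.0258, without Mut replicate 3, to 0.193. The fit without Mut replicate 3 called 1163 of all tested genes higher and 1205 lower, against 869 and 1010 with all libraries. DESeq2 called Gpam higher. The other starting enzymes, Gpat3 and Gpat4, had log2 fold changes of −0.09 and −0.02, and 37.4% of the Gpat3 exon bases were shared with other annotated genes. Gpam took 43.2 ± 9.54% of the summed FPKM of these 3 genes in WT and 55.3 ± 9.65% in Mut.

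The 5 Agpat genes add the next fatty acid to make phosphatidate, and 0 were called by edgeR, DESeq2 or limma-voom. Agpat4, the most abundant per length, read 65.6, 59.4, 84.2, 69.0, 64.1 and 55.2 CPM in WT and 58.5, 65.0, 69.3, 70.3, 57.8 and 47.9 CPM in Mut, with overlapping groups (−0.11, SE 0.11, adjusted p = 0.552). The others ranged from −0.06 for Agpat5 to 0.16 for Agpat3, the only member of the family with an unadjusted p under 0.05 (0.0251, adjusted p = 0.123).

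For triacylglycerol, 0 of 2 genes were called by edgeR, DESeq2 or limma-voom, and 0 had an unadjusted edgeR p under 0.05. Dgat1 adds the last fatty acid and read 26.1, 24.8, 31.9, 27.3, 25.9 and 24.1 CPM in WT and 24.3, 25.6, 26.1, 24.6, 24.2 and 24.8 CPM in Mut, all of these within the WT range (−0.10, SE 0.08, adjusted p = 0.431). Dgat2, an unrelated enzyme for the same reaction, read 35.5 and 34.6 CPM in Mut replicates 1 and 5 and 15.3 to 23.2 CPM in the others, against 16.1 to 23.3 CPM in WT (0.36, SE 0.20, adjusted p = 0.242).

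Adipocyte markers moved with several of these genes and not with others. In Mut replicate 1, which had the highest adipocyte sum, Scd1 read 829.5 CPM, near the low end of its Mut range of 824 to 1376 CPM. Gpam and Fasn had their lowest Mut values in Mut replicate 3, at 40.0 and 275 CPM. Of 13 adipocyte markers, 11 were tested and 4 (Plin1, Plin4, Cidea and Aqp7) were higher in Mut. Cidea and Aqp7 averaged only 0.540 and 0.581 CPM in WT. DESeq2 called 6 of 13 higher and limma-voom 2 of 11. The median over the 11 was 1.55 on the log2 scale, with 9 above 0 and 2 below, Adrb3 at −0.20 and Slc36a2 at −0.18. The highest sums, in Mut replicates 1, 5 and 3, fell in the same libraries as the highest values of Thrsp, Acsl1 and Mlxipl. The heart muscle marker sum was highest in the same libraries, at 1882, 1323 and 1209 CPM, against at most 789 CPM in WT. The adipocyte score and the heart muscle sum thus ranked these libraries alike. The sum was 139, 119 and 159 CPM in Mut replicates 2, 4 and 7, inside the WT range, and Slc36a2 alone made up 49.9 to 81.1 CPM of it in WT. By the mean log2 score over the tested markers, Mut replicate 7 stood at 0.86, above the WT maximum of 0.76. That library also exceeded every WT library for Adipoq (6.996 against at most 4.98 CPM), Plin1 (4.59 against 3.21 CPM) and Cfd (18.6 against 14.8 CPM). The defining genes Adipoq and Plin1 were low but present in WT, at 0.518 to 4.98 and 0.518 to 3.21 CPM, and Lep and Ucp1 were at 0 in 1 WT library each. With the adipocyte score of each library as a covariate, the log2 fold change was 0.12 for Acsl1 (adjusted p = 0.690), 0.25 for Mlxipl (adjusted p = 0.598), 0.02 for Acacb, −0.21 for Dgat2 and −0.78 for Thrsp.

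In that fit Lpin2 was the only member called (0.80, adjusted p = 0.0444). Of all tested genes, 201 were called higher and 298 lower in it, against 869 and 1010 with genotype alone. Lpin3 stood at 0.67 (adjusted p = 0.0746), Elovl5 at 0.33 (adjusted p = 0.0696) and Acaca at 0.23 (adjusted p = 0.336). Without Mut replicates 1, 3 and 5, an alternative chosen after the data were seen, Lpin2 was again the only member called (0.70, adjusted p = 0.0372). This alternative called 302 of all tested genes higher and 361 lower. There Acsl1 stood at 0.22 (adjusted p = 0.351), Lpin3 at 0.61 (adjusted p = 0.0507) and Elovl5 at 0.29 (adjusted p = 0.0966). The part of other tissue in the higher values of Acsl1, Thrsp, Acacb, Dgat2 and Mlxipl was not tested.

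**Figure D4:**
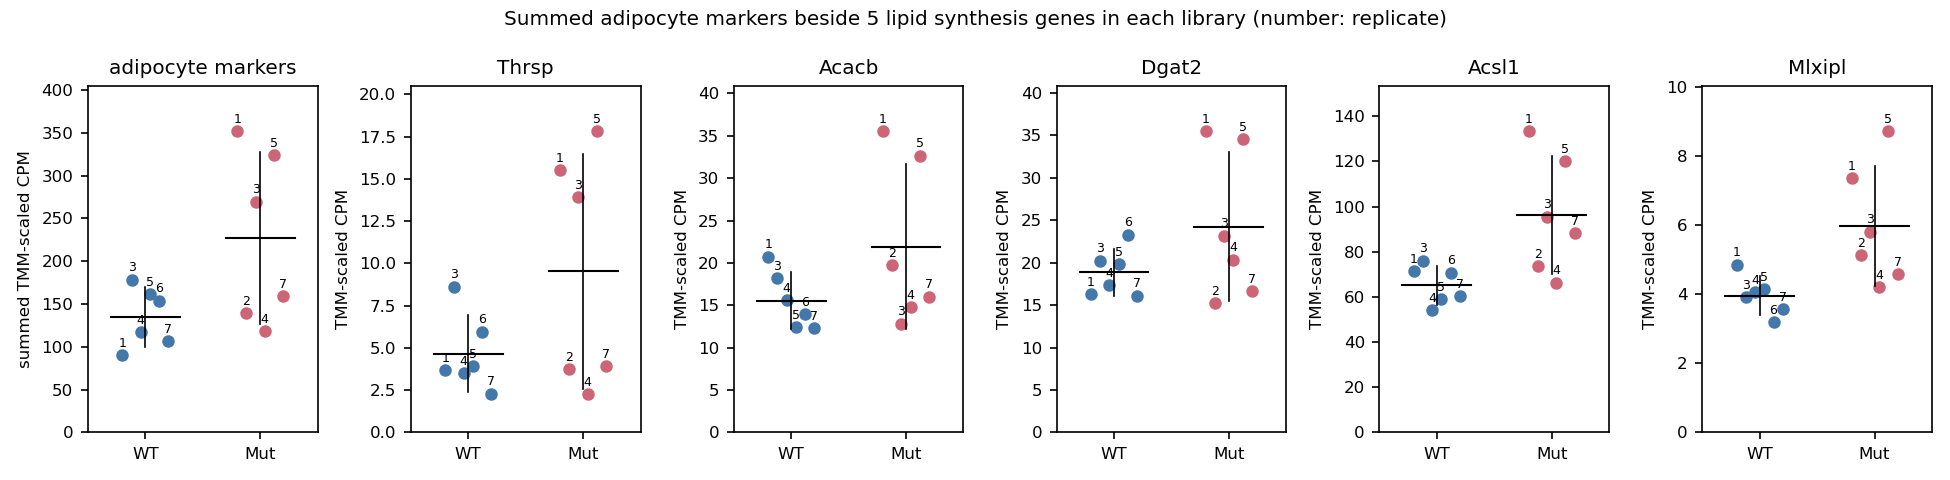
Summed TMM-scaled CPM of 13 adipocyte markers and TMM-scaled CPM of Thrsp, Acacb, Dgat2, Acsl1 and Mlxipl in each library, numbered by replicate, with the mean and SD of 6 libraries per group. Mut replicates 1 and 5 are the highest in every panel.

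Of the 8 genes for phosphatidylcholine and phosphatidylethanolamine, 0 were called by edgeR, DESeq2 or limma-voom. An unadjusted edgeR p under 0.05 was reached by 3, Pcyt1a and Chpt1 higher and Pcyt2 lower, against 27.7% of all tested genes. Pcyt1a, whose enzyme uses CTP to activate phosphocholine and sets the rate of phosphatidylcholine synthesis, read 87.1, 102, 62.7, 94.4, 90.8 and 113 CPM in WT and 124, 116, 89.1, 114, 134 and 117 CPM in Mut. 5 of 6 Mut libraries lay above every WT library (0.34, SE 0.12, adjusted p = 0.0939). With 1 library left out the adjusted p ran from 0.0394, without Mut replicate 3, to 0.1905. Pcyt2, its counterpart for ethanolamine, averaged 60.0 ± 9.29 in WT and 51.2 ± 5.21 CPM in Mut (−0.23, SE 0.10, adjusted p = 0.152). The log2 ratio of Pcyt1a to Pcyt2 counts was 0.60 ± 0.47 in WT and 1.17 ± 0.31 in Mut (SD, n = 6), a difference of 0.57, and 5 of 6 Mut libraries lay above every WT library. The exact permutation test, two-sided, gave p = 0.0216 over all splits into 6 and 6, and 0.2165 after adjustment over the 10 gene pairs compared.

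Cept1, the most abundant of this step per length, makes both phospholipids from diacylglycerol. It read 88.6, 84.5, 77.2, 93.7, 88.7 and 90.2 CPM in WT and 79.0, 98.3, 95.4, 99.3, 92.6 and 112 CPM in Mut (0.14, SE 0.08, adjusted p = 0.275), and other genes shared 24.9% of its exon bases. Chpt1, the cholinephosphotransferase, averaged 184 ± 12.2 in WT and 217 ± 25.1 CPM in Mut, with 5 of 6 Mut libraries above every WT library (0.24, SE 0.08, adjusted p = 0.0807). Chka, the main choline kinase here, lay at 0.09 (adjusted p = 0.522). Chkb was near 1 CPM, and 57.6% of its exon bases were shared, so its value is uncertain. Pcyt1b (0.31, adjusted p = 0.311) and Pemt (−0.04, adjusted p = 0.917), which methylates phosphatidylethanolamine, were under 4 CPM on average.

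All 8 genes of phospholipid remodelling had log2 fold changes below 0. By edgeR, DESeq2 and limma-voom 0 were called, and 0 had an unadjusted edgeR p under 0.05. Lpcat1 had the largest difference. It read 337, 430.4, 495, 463, 431 and 415 CPM in WT and 301, 297, 309, 304, 318 and 550.3 CPM in Mut. 5 of 6 Mut libraries lay below every WT library, and Mut replicate 7 lay above every WT library. Over all 12 libraries the means were 429 ± 53.3 and 346 ± 100.1 CPM (−0.31, SE 0.15, adjusted p = 0.194).

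Without Mut replicate 7, Lpcat1 was called lower in Mut, with a log2 fold change of −0.49 (adjusted p = 0.00549). That fit called 1074 of all tested genes higher and 1104 lower, against 869 and 1010 with all libraries. Lpcat1 was called in 1 of the 12 fits that left out 1 library, with adjusted p up to 0.339. Mut replicate 7 also had the highest sums of the 12 for alveolar type 2, alveolar type 1 and alveolar macrophage markers. The second covariate fit, added after the data were seen, used the score of the type 2 markers. Mut replicate 7 scored 0.73 on the log2 scale, against −0.13 to 0.18 in the other libraries. The covariate thus mostly marked that library, so this fit is not separate from leaving it out. With the type 2 covariate Lpcat1 fell by 0.47 on the log2 scale (adjusted p = 0.00198) and Elovl1 by 0.39 (adjusted p = 0.0361). They were the only members called lower under any alternative. The covariate fit called 1246 of all tested genes higher and 1310 lower, also more than with genotype alone. Of the 12 type 2 markers, 1 (Slc34a2) was higher in Mut and 10 lay above 0, with a median of 0.15. The part of type 2 cells in these values was not tested.

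**Figure D5:**
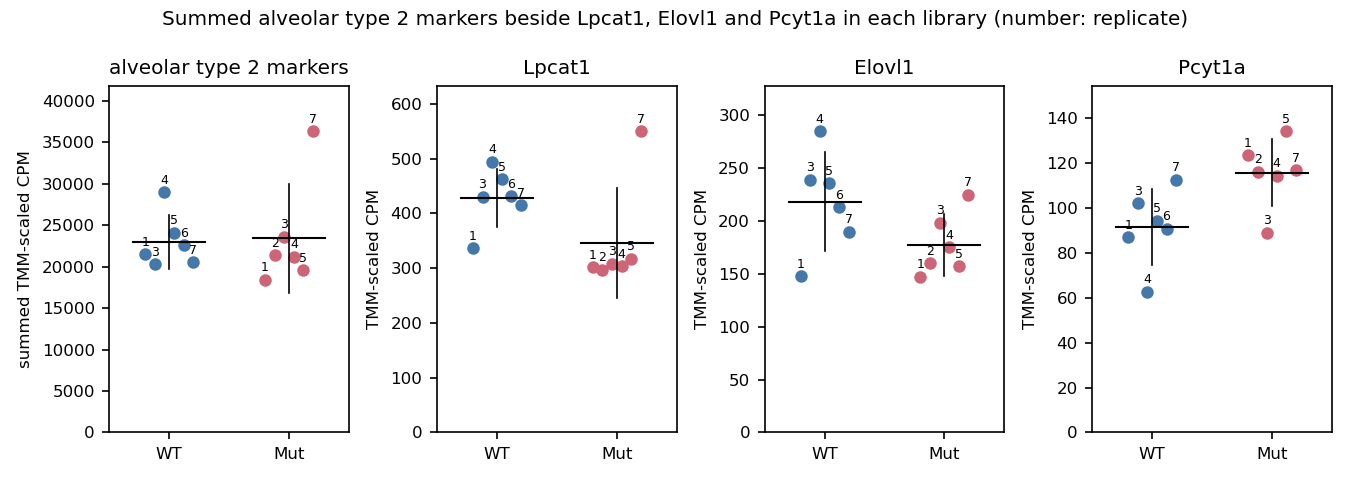
Summed TMM-scaled CPM of 12 alveolar type 2 markers and TMM-scaled CPM of Lpcat1, Elovl1 and Pcyt1a in each library, numbered by replicate, with the mean and SD of 6 libraries per group. Mut replicate 7 is the highest library for the marker sum, at 36342 CPM, and for Lpcat1, at 550.3 CPM, while the other 5 Mut libraries lie below every WT library for Lpcat1.

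The other remodelling genes had adjusted p of 0.298 or more, and without Mut replicate 7 Lpcat4 and Mboat2 stood at 0.0038 and 0.0219, above 0. Lpcat3, which favours polyunsaturated chains, averaged 41.0 ± 1.89 in WT and 38.2 ± 2.06 CPM in Mut (−0.10, adjusted p = 0.318). Lpcat2 stood at −0.12 and Lpcat4, Mboat1 and Mboat2, further acyltransferases of lysophospholipids, between −0.05 and −0.03. Pla2g1b, a secreted phospholipase, averaged 10.7 ± 1.97 in WT and 8.94 ± 1.82 CPM in Mut (−0.25, adjusted p = 0.298). Pla2g15, the lysosomal phospholipase of alveolar macrophages that degrades surfactant lipid, read 35.3 ± 3.10 and 35.2 ± 2.41 CPM (−0.0049, 95% confidence interval −0.17 to 0.16).

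Ratios within a library do not depend on its scaling, and 10 pairs of members were compared in this way. None passed after adjustment. The largest differences were those of Gpam to Gpat4, 0.72 on the log2 scale with 4 of 6 Mut libraries above every WT library (exact two-sided permutation p = 0.0541, adjusted 0.2706), and of Pcyt1a to Pcyt2. The other 8 pairs had adjusted p between 0.376 and 0.894, and the smallest p that 6 against 6 libraries allow is 0.00216. Mut libraries varied more than WT libraries for 33 of the 50 members by coefficient of variation, against 58.7% of all tested genes.

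Beyond the members, 91 further genes of the same pathways were read from the same fit. Of 85 tested, 8 were higher (9.41%) and 3 lower (3.53%) in Mut, against 4.57% and 5.31% of all tested genes, and the median over them was 0.08 on the log2 scale, against 0.01 over all tested genes. In acidic phospholipid synthesis, Cds1, which turns phosphatidate into CDP-diacylglycerol, was higher (0.49, SE 0.10, adjusted p = 0.00813), from 36.3 ± 3.87 to 50.9 ± 6.96 CPM. Ptdss2, a phosphatidylserine synthase, was higher by 0.22 (adjusted p = 0.0428), with every Mut library above every WT library, as for 2.18% of all tested genes. Plpp3, a membrane phosphatase of phosphatidate, was higher by 0.51 (adjusted p = 0.0269), and Hacd2, a dehydratase of the elongation cycle, by 0.33 (adjusted p = 0.0379).

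Among regulators, Prkaa2, a catalytic subunit of the kinase AMPK that inhibits acetyl-CoA carboxylase, rose from 29.9 ± 4.36 to 43.8 ± 6.50 CPM, above every WT library in all 6 Mut libraries (0.55, SE 0.11, adjusted p = 0.00907). Ppara, a receptor that drives fatty acid oxidation, was higher at a low level, 1.42 ± 0.237 against 2.75 ± 1.23 CPM (0.95, adjusted p = 0.0359). Its highest libraries were Mut replicates 5 and 1, at 4.57 and 3.81 CPM, which also had the highest adipocyte and heart muscle sums. Ppara stood at 0.66 with the adipocyte score as a covariate (adjusted p = 0.345). Of 14 genes of fatty acid oxidation itself, 0 were called by edgeR, DESeq2 or limma-voom and 2 had an unadjusted p under 0.05. In fatty acid uptake, the transport proteins Slc27a3 and Slc27a6 were lower (−0.63 and −0.65, adjusted p = 0.0156 and 0.0241). Lpl, the lipase that releases fatty acids from blood lipoproteins, was higher (0.88, adjusted p = 0.0348). Fabp4, a fatty acid-binding protein of fat cells named after its values were seen, was higher by 1.57 (adjusted p = 0.0437), and its highest libraries were Mut replicates 1, 3 and 5 at 102, 86.5 and 66.5 CPM. Slc25a1, which exports citrate from mitochondria for fatty acid synthesis, was lower, from 44.2 ± 8.81 to 33.6 ± 3.12 CPM (−0.40, adjusted p = 0.0447). Of the 12 fits that left out 1 library, 12 called Cds1, Prkaa2 and Slc27a3, 9 called Slc27a6, 6 called Ppara, 4 each called Hacd2, Plpp3, Lpl and Slc25a1, and 3 called Ptdss2. With the adipocyte score as a covariate none of these 10 genes was called, and adjusted p ran from 0.0616 for Slc25a1 to 0.345 for Ppara. That fit called 201 of all tested genes higher and 298 lower, against 869 and 1010 with genotype alone.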

How the data were processed

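Messenger RNA from 12 mouse lung libraries (6 WT, 6 Mut) was selected on oligo(dT) beads, with random hexamers to prime cDNA, per the labels' protocols. The authors deposited a table of unscaled counts per gene, as its values show, and a table of FPKM, in which the authors' counts were divided by library total and a gene length (implied lengths agreed within 1% for 18438 of 18438 genes with at least 5 counts in every library). The submitters' processing notes give mm10 as a build and list limma, with no role for either. The aligner, counting program and annotation are not given in the sources used here. Symbols and coordinates came from GENCODE M21 (GRCm38, the assembly of mm10). 4690 entries without an annotated gene held 0.5848% to 0.8676% of counts and stayed in the fit.

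Counts were analysed with edgeR 4.0.16 in R 4.3.3 (filterByExpr, minimum count 10 and total 15, TMM, robust quasi-likelihood test, genotype as the only term), with Benjamini-Hochberg adjustment over 19004 genes. The biological coefficient of variation was 17.4%. The highest correlation of log2 CPM between 2 libraries was 0.9912, and no library was counted as a duplicate. FPKM served for levels between genes and for limma on log2(FPKM + 1) and log2(FPKM + 0.1). Ratios of 2 members used counts with 0.5 added. Alternatives were RLE, upper-quartile and library-total scaling, no filter, at least 1 CPM in 6 libraries, DESeq2 1.42.0, limma-voom (limma 3.58.1), the replicate block, the adipocyte score (mean log2 CPM of its tested genes) as a covariate, removal of unannotated entries and each library left out. An alveolar type 2 score as a covariate and removal of Mut replicates 1, 3 and 5 were added after the data were seen. The fit was tested on simulated counts. The members and the gene lists were chosen with earlier results of these data known. Values in every library are given for called members and for the most abundant member of each step per length, and up to 3 called genes of each further list are named. Motifs, figures and exact tests were made in Python 3.11.15 with scipy 1.17.1.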

Additional observations from a re-analysis of the deposited data

Results flagged for a closer look

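In 9 of 98 groups of 6 libraries (each member in WT and in Mut), the highest or lowest library stood apart from the rest by Dixon's test, and chance would give about 4.9, as it picks out 1 in 20. Mut replicate 7 was far above the other Mut libraries for Lpcat1 (550.3 CPM, the next at 318), Acsl4 (302 CPM, the next at 220.3) and Chka (137 CPM, the next at 110.0). WT replicate 1 was far above the other WT libraries for Lpin1 (112 CPM, the next at 62.0) and Lpin3 (20.9 CPM, the next at 15.4), and far below them for Agpat5 (33.6 CPM, the next at 40.9). WT replicate 4 was far above the other WT libraries for Pcyt2 (78.4 CPM, the next at 60.1) and Agpat1 (63.7 CPM, the next at 55.4). Mut replicate 4 was far below the other Mut libraries for Acsl3 (23.2 CPM, the next at 32.5).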

How the results depend on the processing

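The count of 5 members called higher held under RLE scaling, limma-voom, the CPM filter and without unannotated entries, and was 3 with upper-quartile scaling, 2 with library totals, 2 with no filter, 1 with limma on log2(FPKM + 1) or log2(FPKM + 0.1), 1 with the adipocyte covariate and 1 without Mut replicates 1, 3 and 5. Leaving out 1 library gave between 1 and 7, with Lpin3 alone called without WT replicate 4, 5 or 6 or Mut replicate 5. Members called lower numbered 2 with the alveolar type 2 covariate and between 0 and 1 with 1 library left out. The 8 further pathway genes called higher became 5 with library totals, 4 with no filter, 3 with either FPKM fit, 0 with the adipocyte covariate, 1 without Mut replicates 1, 3 and 5, and between 2 and 8 with 1 library left out. The 3 called lower became 5 with either FPKM fit, 0 with the adipocyte covariate, 0 without Mut replicates 1, 3 and 5, and between 1 and 4 with 1 library left out. Calls over all tested genes changed too, from 869 higher and 1010 lower to 201 and 298 with the adipocyte covariate. They were 302 and 361 without Mut replicates 1, 3 and 5, 639 and 1029 with no filter, and 404 and 1508 with log2(FPKM + 1). Leaving out WT replicate 4, 5 or 6 gave 501 and 650, 401 and 556, and 501 and 670. Leaving out Mut replicate 5 gave 486 and 637, Mut replicate 3 gave 1163 and 1205, and Mut replicate 7 gave 1074 and 1104. The type 2 covariate gave 1246 and 1310, and DESeq2 1275 and 1444. The cause of these shifts was not tested.

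Between libraries of a shared replicate number, the correlations of deviations for numbers 1, 3, 4, 5 and 7 were 0.0979, −0.1343, −0.1459, 0.0885 and −0.1345. The best match of a WT library was the Mut library of its own number for number 1 only. These values cannot exclude a pairing of the libraries. The replicate block left 0 members called, 0 further genes higher and 0 lower, and 74 genes higher and 33 lower overall.

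With 1 library left out, the log2 ratio difference ran from −0.11 to 0.0701 for Scd1 to Scd2, from −0.22 to 0.0647 for Acaca to Acacb, from 0.39 to 0.68 for Pcyt1a to Pcyt2 and from 0.51 to 0.94 for Gpam to Gpat4. The last 2 passed only without Mut replicate 3 (adjusted p = 0.0325, exact permutation test).

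Of 1533 gene values under alternatives, 1313 kept direction and side of the threshold, 154 lost a call, 15 gained one and 51 changed sign, 0 of these called in either. With the adipocyte covariate, log2 fold changes changed sign for Thrsp (−0.78), Scd1 (−0.12), Dgat2 (−0.21), Pcyt1b (−0.050) and Pemt (0.089). Without Mut replicates 1, 3 and 5 they did for Thrsp (−0.49), Dgat2 (−0.12) and Acsl5 (0.003). With the type 2 covariate they did for Scd1 (−0.033), Elovl6 (0.10), Gpat4 (0.003), Agpat1 (0.0115) and Mboat2 (0.011). The block did so for Scd1 (−0.0035), Elovl6 (0.092) and Mboat1 (0.0099). Scd1 stood at −0.0007 with upper-quartile scaling, −0.0326 with library totals, −0.0349 with log2(FPKM + 1) and −0.0351 with log2(FPKM + 0.1), and Scd2 at −0.0025, −0.0132 and −0.0133 with the last 3 of these. With 1 library left out, Srebf1 ran from −0.0746 to 0.0077, Scd1 from −0.0481 to 0.15, Scd2 from −0.0182 to 0.095, Elovl6 from −0.0833 to 0.11, Acsl5 from −0.0651 to 0.0039, Gpat4 from −0.0647 to 0.0294, Agpat1 from −0.0997 to 0.0441, Pemt from −0.14 to 0.0679, Lpcat4 from −0.0909 to 0.0107, Mboat2 from −0.11 to 0.0219 and Pla2g15 from −0.0433 to 0.0383. Depth limits Elovl3 most, with at most 8 reads per library.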
